A study of Mus musculus with 51 samples.

Results

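The B cell identity and signalling genes were described here across 8 groups of mouse lung, as a set of 33 named genes that act in or on the B cell antigen receptor, in its inhibition, in B cell transcription or in B cell survival and homing. Members were found by gene symbol in the annotation of the array, and 32 of the 33 carried a probe set, each of them exactly 1, among the 19505 gene symbols measured. No probe set was annotated to Pou2f2 (a transcription factor of B cells), which was not analysed here. The series asked how lungs of mice sensitized to methylene diphenyl diisocyanate (MDI, a building block of polyurethane that can cause asthma) respond to MDI in the airways. All mice, controls included, were males of 6 to 8 weeks whose skin had been treated 2 times with 1% MDI in acetone, and all received airway exposures on days 15, 16, 19 and 20, with lungs taken 48 h after the last. MDI groups received products of MDI reacted with glutathione (GSH), and control groups received a solution in which MDI and GSH had been reacted separately. Without a drug, BALB/c mice gave 3 control arrays and 3 after MDI, C57BL/6 mice 6 and 13, and the B-cell deficient strain, B6.129S2-Ighmtm1Cgn/J, 9 and 7. Another 5 control and 3 MDI arrays came from C57BL/6 mice given crofelemer, a plant-derived inhibitor of chloride channels, through the nose at 4 mg/kg 4 h before each exposure. The B-cell deficient strain carries a targeted allele of Ighm, the immunoglobulin mu heavy chain gene, in every cell, and the labels do not say whether the C57BL/6 mice were littermates of it. Nothing in the labels says that the arrays of a group came from separate animals, so the p-values measure the spread between these arrays.

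A B cell recognizes antigen through membrane immunoglobulin, which has almost no cytoplasmic tail and signals through its partners Cd79a and Cd79b. Kinases such as Blk and Btk and adaptors such as Blnk and Bank1 relay that signal, receptors such as Cd22 and Cd72 damp it, and the transcription factors Ebf1 and Pax5 set up and maintain the B cell programme. In lung, B cells enter from the blood, survive on the cytokine BAFF through the receptor Tnfrsf13c, and gather in lymphoid clusters along gradients of the chemokine Cxcl13 sensed by Cxcr5.

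Levels are log2 signals as deposited, less 1 constant for each strain set: 0.64 was taken from the B-cell deficient arrays and 0.17 was added to the BALB/c arrays, which brought the array medians of the 3 sets to a common level. The spread of the values was narrower on the B-cell deficient controls (SD over probe sets 2.85 to 3.06) than on the C57BL/6 controls (3.21 to 3.29), and genes at the top of the scale were lower there, such as Sftpc, which encodes surfactant protein C of alveolar type 2 cells (18.55 ± 0.05, SD, n = 9, against 19.57 ± 0.05, n = 6). All 9 B-cell deficient controls lay in a block of consecutive submission records that held no C57BL/6 array, so block and genotype cannot be told apart in that comparison. The MDI arrays of the B-cell deficient mice were split over 2 blocks (4 and 3), and those 4 shared a block with 12 of the 13 C57BL/6 MDI arrays. The C57BL/6 control arrays with crofelemer also differed in scale from those without it. Their SD over probe sets was 3.06 to 3.21, and their array medians were 6.79 to 6.83 against 6.90 to 7.01. Both belong to the same strain set, so no constant levelled this difference in the crofelemer contrasts. Ighm, the targeted gene, carried no probe set in the annotation used and was not analysed here. Jchain, which joins immunoglobulin into dimers and pentamers in antibody-secreting cells, was the one of 16 listed immunoglobulin genes that was measured. It was at 2.43 ± 0.40 (SD, n = 9) on B-cell deficient control arrays and at 9.24 ± 1.25 (n = 6) on C57BL/6 control arrays.

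Promoters are shown for 4 members, 250 bases before to 50 after the transcription start in the RefSeq annotation of GRCm38.p6. Cd79a had the largest loss in B-cell deficient lung, and the other 3 hold an exact match to 1 of 2 motif forms searched. Capitals mark the match, and Cd79a has no match to these exact forms. Other forms of the sites of these factors were not searched, so a site in Cd79a or another member may have been missed.
Cd79a, chr7:24897247-24897546, plus strand: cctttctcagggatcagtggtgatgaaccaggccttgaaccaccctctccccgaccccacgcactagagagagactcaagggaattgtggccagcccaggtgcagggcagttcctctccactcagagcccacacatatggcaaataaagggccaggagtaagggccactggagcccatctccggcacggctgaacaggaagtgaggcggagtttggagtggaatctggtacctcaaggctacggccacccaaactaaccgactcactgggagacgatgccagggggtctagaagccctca
Cd22, chr7:30878979-30879278, minus strand: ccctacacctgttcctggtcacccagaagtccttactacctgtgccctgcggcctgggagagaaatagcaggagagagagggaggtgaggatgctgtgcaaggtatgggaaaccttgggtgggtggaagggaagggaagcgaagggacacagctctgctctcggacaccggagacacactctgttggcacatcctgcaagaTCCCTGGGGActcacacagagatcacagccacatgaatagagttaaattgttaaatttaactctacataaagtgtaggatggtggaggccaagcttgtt
Blnk, chr19:40994172-40994471, minus strand: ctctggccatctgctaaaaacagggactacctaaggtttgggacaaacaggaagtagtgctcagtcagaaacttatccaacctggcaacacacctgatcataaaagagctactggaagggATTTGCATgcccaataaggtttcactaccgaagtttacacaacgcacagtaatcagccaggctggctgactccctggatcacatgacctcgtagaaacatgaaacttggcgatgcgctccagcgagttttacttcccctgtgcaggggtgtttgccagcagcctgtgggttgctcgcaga
Vpreb3, chr10:75948050-75948349, plus strand: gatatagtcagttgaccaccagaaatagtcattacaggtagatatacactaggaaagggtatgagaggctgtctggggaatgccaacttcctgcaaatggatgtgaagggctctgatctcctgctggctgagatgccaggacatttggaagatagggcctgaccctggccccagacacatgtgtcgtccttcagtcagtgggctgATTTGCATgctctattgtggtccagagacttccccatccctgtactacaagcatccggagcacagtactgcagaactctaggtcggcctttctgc
The octamer ATGCAAAT, bound by Oct factors with the coactivator Pou2af1, was searched on both strands. It occurred in Blnk, 130 bases before the start, and in Vpreb3, 45 bases before it, among 26 measured members with a promoter in the table (7.69%). It occurred in 1.97% of all 27025 genes and in 1.74% of all 32851 promoters of this length. A form of the site of Ebf1, the palindrome of TCCC, any 2 bases and GGGA, occurred in Cd22 alone of the 26 members (3.85%), 49 bases before the start, against 1.06% of all genes and 0.904% of promoters. The 2 motifs share no position in these windows. These matches are letters in a window and not measured binding.

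In B-cell deficient lungs most members were strongly lower, and in C57BL/6 lungs given crofelemer most of the members fell as well, by less. Between B-cell deficient and C57BL/6 controls, 29 of 32 members were lower, 1 was higher and 2 did not pass the test (limma, Benjamini-Hochberg adjusted p under 0.05 over 22206 probe sets). Of all probe sets, 35.4% were called lower and 24.1% higher. The median difference of the members was -2.27 on the log2 scale (range -6.47 to 0.62), beside -0.10 over all probe sets. With the block of submission records as a term in the fit, 25 members were lower and 1 was higher. That term rested on the B-cell deficient MDI arrays alone (4 and 3 in the blocks concerned). It was taken to be the same in controls, which was not tested, so this fit does not separate block from genotype there. With crofelemer, 29 of 32 members fell in control lungs and none rose, where 21.4% of all probe sets were called lower and 17.6% higher. The median was -1.18 (range -2.96 to 0.07), beside 0.03 over all probe sets. A fall of at least 2-fold was called for 27 members in the B-cell deficient controls (6.38% of all probe sets) and for 22 with crofelemer (7.68%). In whole lung given crofelemer, fewer B cells and less RNA per B cell cannot be told apart.

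On the levelled scale the same held under MDI. Between B-cell deficient and C57BL/6 MDI lungs, 27 members were lower and 1 was higher (29.3% and 13.3% of all probe sets, and 25 and 4 members with no constant per set), with a median of -1.68 beside -0.11 over all probe sets. Within the submission block that held both genotypes, 27 were lower and none was higher. Crofelemer lowered 28 members in MDI lungs and raised none (17.5% and 15% of all probe sets), with a median of -1.09 beside 0.04. The genotype median includes the constant of 0.64 taken from the B-cell deficient arrays. Which of these medians is the lower under MDI therefore depends on the levelling. With the replicate number as a block, over the 6 arrays whose number occurs in both groups, 15 members fell. This fit kept 3 of the 13 C57BL/6 MDI arrays, whose means over all members were 7.85, 7.74 and 8.64 (group median 8.41). The block and the smaller set of arrays cannot be told apart in it. The 13 calls lost there were Cd22, Siglecg, Btla, Fcrl1, Fcer2a, Blk, Ralgps2, Ebf1, Pou2af1, Bcl11a, Cd40, Cxcr5 and Ly6d (adjusted p = 0.0503 to 0.838), with Ebf1 at -0.26 and Cxcr5 at -0.16. At least 2-fold falls were called for 25 members by genotype (1.14% of all probe sets) and 20 members by crofelemer (6.84%). The genotype and the crofelemer comparisons share the C57BL/6 arrays without drug. The C57BL/6 arrays of the crofelemer comparisons lay mostly in one block (4 of 6 controls and 4 of 5 controls with crofelemer), and within it the counts were again 29 and 28.

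**Figure D1:**
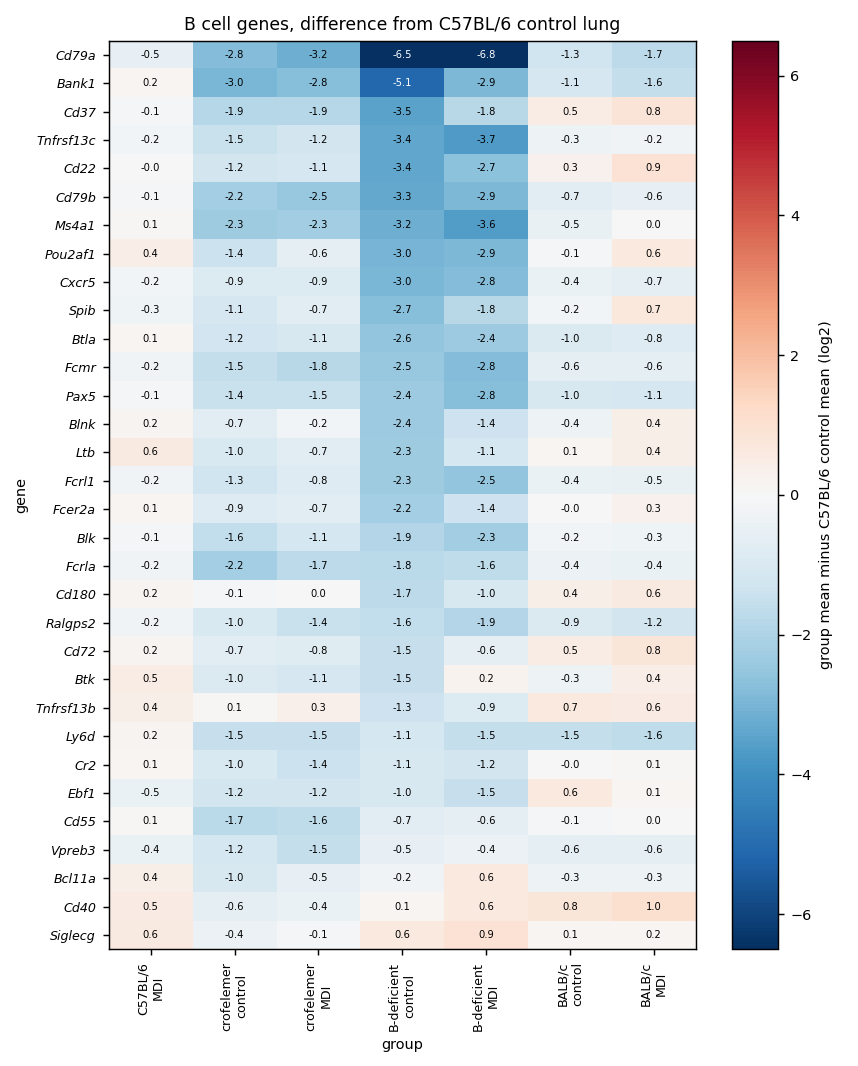
Difference of each group mean from the C57BL/6 control mean (log2) for the 32 members, 1 row per gene and 1 column per group, blue for lower and red for higher. The columns of the B-cell deficient mice are the darkest for most genes, from -6.5 for Cd79a to 0.6 for Siglecg in controls, and the columns with crofelemer lie between these and zero for most rows.

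The mean over all 32 members gives each array 1 number on the log2 scale. It lay between 7.91 and 8.64 on the C57BL/6 control arrays (median 8.30) and between 7.74 and 8.88 on the C57BL/6 MDI arrays (median 8.41). With crofelemer it lay between 6.97 and 7.07 in controls and between 6.89 and 7.37 under MDI. On the B-cell deficient arrays it lay between 6.10 and 6.27 in controls and between 6.34 and 6.71 under MDI. The C57BL/6, crofelemer and B-cell deficient arrays thus formed 3 ranges that did not touch on the levelled scale. With no constant per set, the B-cell deficient means were 6.74 to 6.91 in controls, still below those with crofelemer, and 6.98 to 7.35 under MDI, within the range with crofelemer. In controls 27 of 32 members had every B-cell deficient array below every C57BL/6 array (16.4% of all probe sets), and 25 had every crofelemer array below every array without it (12.7%). Under MDI these counts were 20 (4.55%) and 15 (8.87%). With no constant per set, 21 members had every B-cell deficient array below every C57BL/6 array in controls and 14 under MDI. Between B-cell deficient and crofelemer arrays, separation depended on the constant for more members. In controls every B-cell deficient array was below every crofelemer array for 20 members (17.4% of all probe sets), and for 7 with no constant. Under MDI this was so for 16 (20.7%), and for 6 with no constant. The shares of all probe sets given here are on the levelled scale. None is given with no constant, so whether the counts with no constant differ from such a share is not known. The ranges that follow are on the levelled scale.

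**Figure D2:**
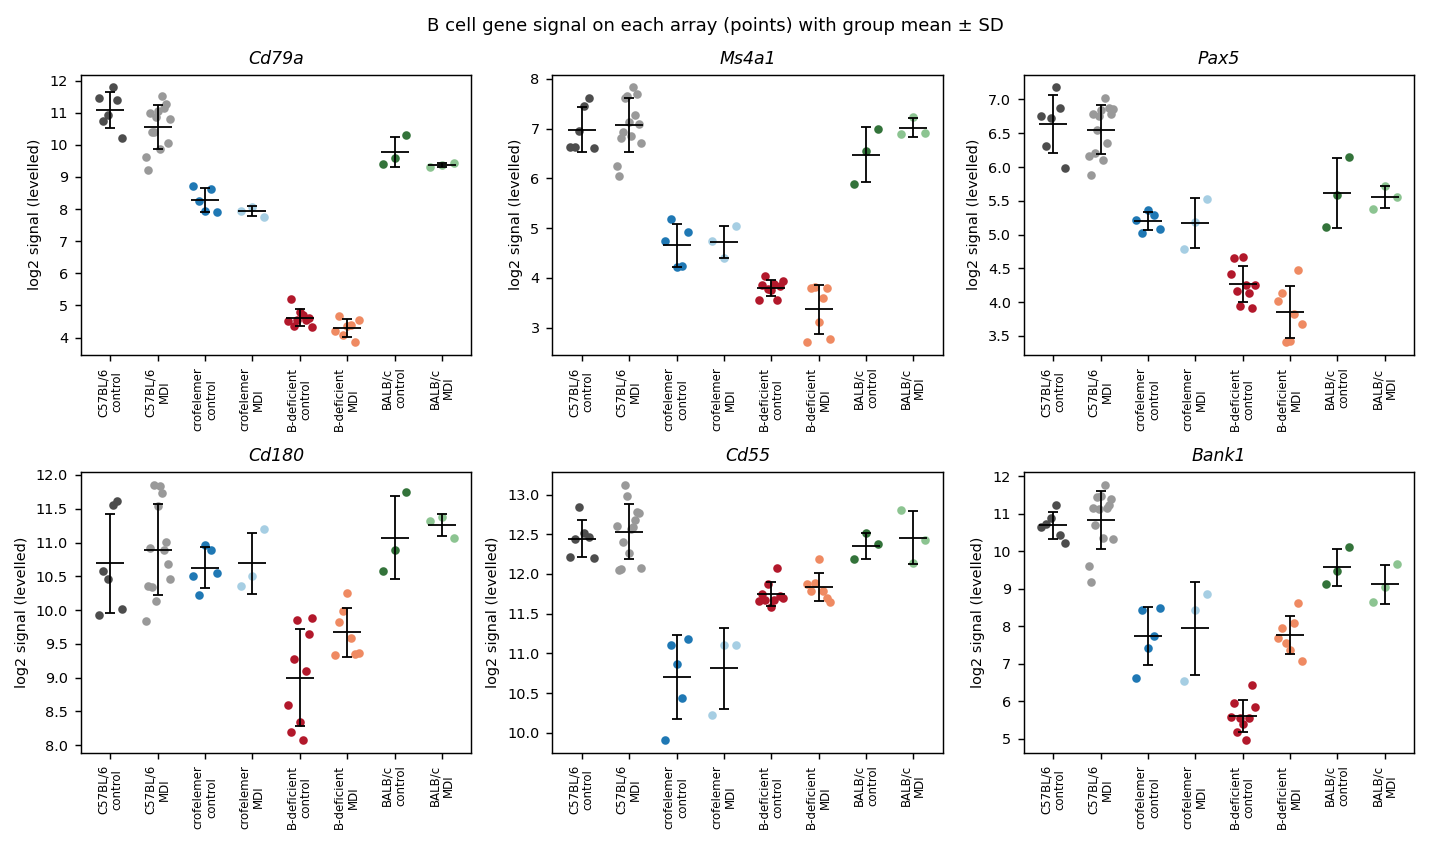
Levelled log2 signal of 6 members on each array (points) in the 8 groups, with the group mean and SD as bars. Cd79a, Ms4a1 and Pax5 step down from C57BL/6 to crofelemer to B-cell deficient, Cd180 is low in B-cell deficient lungs alone, Cd55 is lowest with crofelemer, and Bank1 is higher on the MDI than on the control arrays of B-cell deficient mice.

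All 6 members of the receptor complex and its neighbours in the membrane were lower in B-cell deficient lung and fell with crofelemer, in controls and under MDI. Cd79a, the signalling subunit Ig-alpha, was at 10.21, 11.16 and 11.79 (lowest, median, highest) on the 6 C57BL/6 control arrays. It was at 8.71, 8.25, 7.95, 8.63 and 7.90 on the 5 control arrays with crofelemer, and at 4.33, 4.55 and 5.20 (lowest, median, highest) on the 9 B-cell deficient controls. The ranges of these groups were far apart, and the B-cell deficient arrays stood lowest. Cd79a was lower by 6.47 ± 0.24 (SE) in B-cell deficient mice (88.4-fold, adjusted p = 3.9e-27) and fell by 2.80 ± 0.27 with crofelemer (6.94-fold, adjusted p = 5.86e-12). How far its signal in B-cell deficient lungs lies above background is unknown, so the size of its genotype difference may be limited by it. Under MDI it was at 9.23, 10.81 and 11.52 (lowest, median, highest) in C57BL/6, 7.95, 8.07 and 7.76 with crofelemer and 3.86, 4.36 and 4.68 (lowest, median, highest) in B-cell deficient lung. These groups did not overlap either, with differences of -6.25 ± 0.21 by genotype and -2.63 ± 0.29 by crofelemer.

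Cd79b, the partner subunit Ig-beta, was at 8.30, 9.05 and 9.12 (lowest, median, highest) on C57BL/6 control arrays, at 6.57, 6.86, 7.06, 6.48 and 6.52 with crofelemer and at 5.20, 5.44 and 6.16 (lowest, median, highest) on B-cell deficient arrays. The differences were -3.31 ± 0.21 by genotype and -2.23 ± 0.24 by crofelemer (adjusted p = 4.43e-18 and 1.04e-10), and no group overlapped another. With no constant per set, the B-cell deficient arrays of Cd79b, at 5.84 to 6.80, overlapped those with crofelemer. Under MDI, Cd79b was at 7.82, 8.83 and 9.82 (lowest, median, highest) in C57BL/6 lungs and at 5.78, 6.95 and 6.67 with crofelemer, a fall of 2.41 ± 0.26 (adjusted p = 9.24e-11). The crofelemer arrays there overlapped the B-cell deficient range of 5.17 to 6.68. Ms4a1, the surface protein CD20 and target of B cell-depleting antibodies, was at 6.61, 6.79 and 7.62 (lowest, median, highest) in C57BL/6 controls, 4.74, 5.19, 4.21, 4.23 and 4.92 with crofelemer and 3.55, 3.84 and 4.04 (lowest, median, highest) in B-cell deficient mice. It was lower by 3.18 ± 0.22 in B-cell deficient mice and fell by 2.32 ± 0.25 with crofelemer (adjusted p = 7.72e-17 and 1.04e-10), and by 3.70 ± 0.20 and 2.35 ± 0.27 under MDI. Its MDI arrays were at 6.04, 7.10 and 7.83 (lowest, median, highest) in C57BL/6, 4.74, 4.39 and 5.04 with crofelemer and 2.71, 3.59 and 3.82 (lowest, median, highest) in B-cell deficient mice. In both exposures its 3 groups were separate, but with no constant per set the B-cell deficient arrays overlapped those with crofelemer in controls (4.19 to 4.68) and under MDI (3.35 to 4.46).

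Cd37, a tetraspanin of B cells and other leukocytes, was at 10.53, 11.85 and 11.98 (lowest, median, highest) in C57BL/6 controls, 10.17, 9.69, 9.24, 9.54 and 9.39 with crofelemer and 7.36, 7.80 and 8.67 (lowest, median, highest) in B-cell deficient controls. It was lower by 3.47 ± 0.28 by genotype and fell by 1.87 ± 0.32 with crofelemer, and the groups did not overlap, although with no constant per set the B-cell deficient arrays overlapped those with crofelemer. Under MDI the B-cell deficient arrays spanned 8.76 to 10.57 and reached into the C57BL/6 range of 9.99 to 12.46, with a difference of -1.67 ± 0.25 (adjusted p = 4.08e-07). Cr2, the complement receptor CD21 that lowers the threshold of B cell activation, was near the low end of the scale in all groups. Its level was 5.37 ± 0.20 (SD, n = 6) in C57BL/6 controls, 4.38 ± 0.38 (n = 5) with crofelemer and 4.30 ± 0.26 (n = 9) in B-cell deficient mice. Under MDI its arrays were at 4.56, 5.55 and 5.96 (lowest, median, highest) in C57BL/6, 3.42, 4.18 and 4.33 with crofelemer and 3.73, 4.20 and 4.45 (lowest, median, highest) in B-cell deficient mice. Crofelemer lowered it by 1.52 ± 0.19 there (adjusted p = 9.69e-09), and the crofelemer and B-cell deficient arrays overlapped, whereas with no constant per set every B-cell deficient array was the higher.

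Cd55, a complement regulator found on most cells of blood and tissue, stood apart within its group. It was at 12.20, 12.45 and 12.84 (lowest, median, highest) in C57BL/6 controls, at 9.91, 11.11, 10.87, 10.44 and 11.18 with crofelemer and at 11.58, 11.70 and 12.08 (lowest, median, highest) in B-cell deficient controls. The crofelemer arrays were the lowest of the 3 groups, below every B-cell deficient array. Under MDI it was at 12.05, 12.59 and 13.12 (lowest, median, highest) in C57BL/6 lungs, 10.22, 11.10 and 11.11 with crofelemer and 11.65, 11.79 and 12.19 (lowest, median, highest) in B-cell deficient mice, in the same order. The fall with crofelemer was 1.74 ± 0.18 in controls and 1.72 ± 0.19 under MDI (adjusted p = 4.58e-11 and 4.61e-10), and the difference by genotype was -0.70 ± 0.16 and -0.69 ± 0.14. The values were also fitted with no constant per set, with each array centred on its median, and quantile normalized. The genotype difference of Cd55 was not called under all 4 of these scalings, in controls or under MDI, whereas the fall with crofelemer was.

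Of the 8 inhibitory and Fc receptors, 7 were lower and Siglecg was higher in B-cell deficient controls, and crofelemer lowered 7 in controls and all 8 under MDI. Cd22, a sialic acid-binding lectin that recruits phosphatases to the antigen receptor, was at 8.08, 8.47 and 8.91 (lowest, median, highest) in C57BL/6 controls, 7.50, 6.68, 7.62, 7.26 and 7.35 with crofelemer and 4.70, 5.08 and 5.59 (lowest, median, highest) in B-cell deficient mice. The groups did not overlap, and the differences were -3.37 ± 0.18 and -1.19 ± 0.21 (adjusted p = 1.02e-20 and 7.84e-06). This is the gene whose promoter holds the Ebf1-type palindrome. Fcmr, the Fc receptor of IgM, was at 6.17, 7.23 and 7.76 (lowest, median, highest) in C57BL/6 MDI lungs, 5.79, 5.74 and 5.20 with crofelemer and 4.45, 4.52 and 4.77 (lowest, median, highest) in B-cell deficient mice. The 3 groups were separate, although with no constant per set the B-cell deficient arrays (5.09 to 5.41) overlapped those with crofelemer. The differences were -2.59 ± 0.15 by genotype and -1.59 ± 0.21 by crofelemer (adjusted p = 1.72e-08), and the differences in controls were -2.45 ± 0.17 and -1.53 ± 0.20.

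Fcrla, an Fc receptor-like protein kept inside the cell, had the smallest adjusted p of the members for crofelemer in controls. It was at 5.51, 6.07 and 6.35 (lowest, median, highest) without the drug, at 3.98, 3.98, 3.24, 4.06 and 3.79 with it and at 3.85, 4.30 and 4.59 (lowest, median, highest) in B-cell deficient controls. Crofelemer lowered it by 2.20 ± 0.20 (adjusted p = 6.19e-13), to a range that lay lower than the B-cell deficient one and overlapped it, and that was wholly below it with no constant per set. Under MDI the fall was 1.46 ± 0.21 and the difference by genotype -1.40 ± 0.16.

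Fcrl1, an Fc receptor-like protein that enhances B cell activation, was lower by 2.32 ± 0.15 by genotype and fell by 1.30 ± 0.17 with crofelemer in controls, and by 2.33 ± 0.13 and 0.61 ± 0.18 under MDI. Btla, an inhibitory receptor of B and T cells, was lower by 2.56 ± 0.19 and fell by 1.24 ± 0.22 in controls. Fcer2a, the low-affinity IgE receptor CD23, was lower by 2.23 ± 0.16 and fell by 0.85 ± 0.19. Cd72, an inhibitory lectin, was lower by 1.51 ± 0.19 and fell by 0.67 ± 0.21, its crofelemer arrays overlapping those without the drug. Under MDI the 3 genes Btla, Fcer2a and Cd72 fell by 1.18 ± 0.23, 0.82 ± 0.20 and 0.98 ± 0.23 with crofelemer. Siglecg, an inhibitory lectin of B-1 cells, was the exception. It was at 4.12, 4.68 and 4.89 (lowest, median, highest) in C57BL/6 controls, 3.92, 4.15, 4.16, 4.51 and 4.42 with crofelemer and 4.78, 5.15 and 5.72 (lowest, median, highest) in B-cell deficient controls. It was higher by 0.62 ± 0.16 by genotype (adjusted p = 0.00129), a call that was not kept under all 4 scalings or without the 4 B-cell deficient control arrays of narrowest spread (adjusted p = 0.0852), and it differed by -0.39 ± 0.19 with crofelemer (adjusted p = 0.0946). Under MDI crofelemer lowered it by 0.71 ± 0.20 (adjusted p = 0.00467), and without the second of the 3 arrays with crofelemer the adjusted p was 0.091.

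All 5 signalling kinases and adaptors were lower in B-cell deficient mice in controls and fell with crofelemer there. Bank1, a scaffold with ankyrin repeats that binds Src-family kinases, was at 10.22, 10.69 and 11.24 (lowest, median, highest) in C57BL/6 controls, 6.63, 8.43, 7.41, 7.73 and 8.48 with crofelemer and 4.97, 5.56 and 6.44 (lowest, median, highest) in B-cell deficient mice. The groups did not overlap, although with no constant per set the B-cell deficient arrays overlapped those with crofelemer. The differences were -5.09 ± 0.32 and -2.96 ± 0.36 (adjusted p = 2e-18 and 2.9e-09). Under MDI its arrays were at 9.17, 11.17 and 11.77 (lowest, median, highest) in C57BL/6, 6.54, 8.43 and 8.86 with crofelemer and 7.08, 7.70 and 8.62 (lowest, median, highest) in B-cell deficient lung. There the B-cell deficient range lay within the crofelemer range, both below the C57BL/6 arrays, which the B-cell deficient ones overlapped with no constant per set, with differences of -3.08 ± 0.28 and -2.90 ± 0.38.

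Blk, a Src-family kinase of B cells, was lower by 1.92 ± 0.17 by genotype and fell by 1.58 ± 0.20 with crofelemer in controls, and by 2.16 ± 0.15 and 1.05 ± 0.21 under MDI. Blnk, the adaptor that links Syk to downstream enzymes, was lower by 2.36 ± 0.16 and fell by 0.70 ± 0.18 in controls. Under MDI the genotype difference of Blnk was -1.54 ± 0.14 and the crofelemer difference -0.37 ± 0.19 (adjusted p = 0.139), which did not pass. Ralgps2, an exchange factor for Ral GTPases, was lower by 1.62 ± 0.15 and fell by 1.01 ± 0.17 in controls. Btk, a Tec-family kinase that myeloid cells also express, was lower by 1.48 ± 0.26 and fell by 0.95 ± 0.29. Under MDI, Btk differed by -0.25 ± 0.23 by genotype (adjusted p = 0.382) and fell by 1.59 ± 0.31 with crofelemer, where its arrays were spread from 6.21 to 8.55.

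Of the 5 transcription factors measured, 4 were lower in B-cell deficient mice and all 5 fell with crofelemer in controls. Pou2af1, the coactivator of Oct factors, was at 6.15, 6.37 and 7.02 (lowest, median, highest) in C57BL/6 controls, 4.73, 5.36, 5.20, 4.67 and 5.46 with crofelemer and 3.10, 3.34 and 4.15 (lowest, median, highest) in B-cell deficient mice. It was lower by 3.02 ± 0.19 and fell by 1.38 ± 0.22 (adjusted p = 3.89e-18 and 1.13e-06). The groups did not overlap, although with no constant per set the B-cell deficient arrays overlapped those with crofelemer. Pax5, the factor that commits progenitors to the B lineage, was lower by 2.37 ± 0.18 and fell by 1.44 ± 0.20 in controls, and by 2.70 ± 0.16 and 1.39 ± 0.22 under MDI. Spib, an Ets factor of B cells and plasmacytoid dendritic cells, was lower by 2.74 ± 0.18 and fell by 1.10 ± 0.21. Its difference with crofelemer under MDI was -0.43 ± 0.22 (adjusted p = 0.131).

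Ebf1, which specifies early B cells and is also active in stromal and fat lineages, stayed bright in all groups. It was at 11.99 ± 0.21 (SD, n = 6) in C57BL/6 controls, 10.81 ± 0.36 (n = 5) with crofelemer and 10.97 ± 0.21 (n = 9) in B-cell deficient mice. It was lower by 1.02 ± 0.16 by genotype and fell by 1.18 ± 0.18 with crofelemer, and the B-cell deficient and crofelemer arrays overlapped. Under MDI, Ebf1 fell by 0.76 ± 0.20 with crofelemer (adjusted p = 0.00173), which became 0.0879 without the first array with crofelemer. Bcl11a, a zinc-finger factor of B cell progenitors and plasmacytoid dendritic cells, was at 6.11, 6.78 and 7.22 (lowest, median, highest) in C57BL/6 controls, 5.88, 5.56, 5.35, 5.86 and 5.93 with crofelemer and 5.87, 6.65 and 6.92 (lowest, median, highest) in B-cell deficient mice. The B-cell deficient arrays overlapped the C57BL/6 arrays, with a difference of -0.25 ± 0.18 (adjusted p = 0.248). All crofelemer arrays lay below the C57BL/6 range, with a fall of 1.02 ± 0.21 (adjusted p = 9.82e-05).

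Of the 8 members for survival, homing, costimulation and the surrogate light chain, 7 were lower in B-cell deficient mice and 6 fell with crofelemer, in controls. Tnfrsf13c, the BAFF receptor, was at 9.22, 9.47 and 10.51 (lowest, median, highest) in C57BL/6 controls, 8.33, 8.16, 7.60, 8.19 and 8.52 with crofelemer and 5.99, 6.15 and 6.56 (lowest, median, highest) in B-cell deficient mice. The groups were separate, with differences of -3.38 ± 0.23 and -1.47 ± 0.27 (adjusted p = 5.81e-17 and 1.19e-05). Under MDI crofelemer lowered it by 1.02 ± 0.28 (adjusted p = 0.00384), which became 0.0728 without the second array with crofelemer. Cxcr5, the receptor of Cxcl13, was lower by 2.96 ± 0.21 and fell by 0.91 ± 0.24 in controls. Under MDI, Cxcr5 fell by 0.67 ± 0.25 with crofelemer (adjusted p = 0.0366), and leaving out the third array with crofelemer raised the adjusted p to 0.268. Ltb, a lymphotoxin subunit of B and T cells that builds lymphoid tissue, was lower by 2.32 ± 0.16 and fell by 1.01 ± 0.19. Ly6d, a surface marker of B cell progenitors that squamous epithelia also express, was lower by 1.12 ± 0.29 and fell by 1.50 ± 0.34.

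Cd180 and Tnfrsf13b were low in B-cell deficient mice and had no call for crofelemer. Cd180, a Toll-like receptor homologue of B cells and myeloid cells, was at 9.92, 10.52 and 11.61 (lowest, median, highest) in C57BL/6 controls, 10.51, 10.22, 10.96, 10.89 and 10.55 with crofelemer and 8.08, 9.10 and 9.89 (lowest, median, highest) in B-cell deficient mice. Its difference was -1.69 ± 0.29 by genotype (adjusted p = 2.81e-06) and -0.06 ± 0.33 with crofelemer (95% interval -0.74 to 0.61, adjusted p = 0.9). Tnfrsf13b, the receptor TACI for BAFF and APRIL, was at 6.08, 6.25 and 6.77 (lowest, median, highest) in C57BL/6 controls, 6.90, 6.54, 6.22, 6.65 and 5.85 with crofelemer and 4.43, 5.04 and 5.43 (lowest, median, highest) in B-cell deficient controls. Its difference was -1.35 ± 0.16 by genotype (adjusted p = 1.08e-09) and 0.07 ± 0.18 with crofelemer (95% interval -0.31 to 0.44, adjusted p = 0.811). In both genes the crofelemer arrays lay within or around the C57BL/6 range and above every B-cell deficient array, which overlapped them with no constant per set. Under MDI the crofelemer differences were -0.20 ± 0.35 and -0.04 ± 0.20, neither of which passed.

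Cd40, like Bcl11a, fell with crofelemer and had no call by genotype on the levelled scale, and Vpreb3 had a larger difference with crofelemer than by genotype. With no constant per set, the control ranges of Cd40 were 8.41 to 8.99 in B-cell deficient and 7.64 to 8.59 in C57BL/6 mice. Those of Bcl11a were 6.51 to 7.56 and 6.11 to 7.22. Under MDI every B-cell deficient array of Bcl11a was then above every C57BL/6 array (7.78 to 8.19 against 6.35 to 7.67). Cd40, the costimulatory receptor of B cells, dendritic cells and macrophages, was at 7.64, 7.88 and 8.59 (lowest, median, highest) in C57BL/6 controls, 7.00, 7.85, 7.21, 7.25 and 7.49 with crofelemer and 7.77, 8.18 and 8.35 (lowest, median, highest) in B-cell deficient mice. It differed by 0.14 ± 0.17 by genotype (adjusted p = 0.497) and fell by 0.59 ± 0.20 with crofelemer (adjusted p = 0.0137), a call that ended without the first control array with crofelemer or the fifth C57BL/6 control array (adjusted p = 0.0549 and 0.0596). Under MDI, Cd40 fell by 0.96 ± 0.21 with crofelemer. Vpreb3, which associates with the antigen receptor precursor and whose promoter holds the octamer, was at 7.62, 7.93 and 8.25 (lowest, median, highest) in C57BL/6 controls, 7.41, 6.37, 6.80, 6.56 and 6.78 with crofelemer and 7.05, 7.35 and 8.13 (lowest, median, highest) in B-cell deficient controls. It was lower by 0.51 ± 0.18 by genotype (adjusted p = 0.0147), a call that changed with the scaling and ended without the 4 B-cell deficient control arrays of narrowest spread (adjusted p = 0.102), and fell by 1.16 ± 0.21 with crofelemer (adjusted p = 1.28e-05). Every crofelemer array lay below every C57BL/6 array, whereas the B-cell deficient arrays overlapped the C57BL/6 range.

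**Figure D3:**
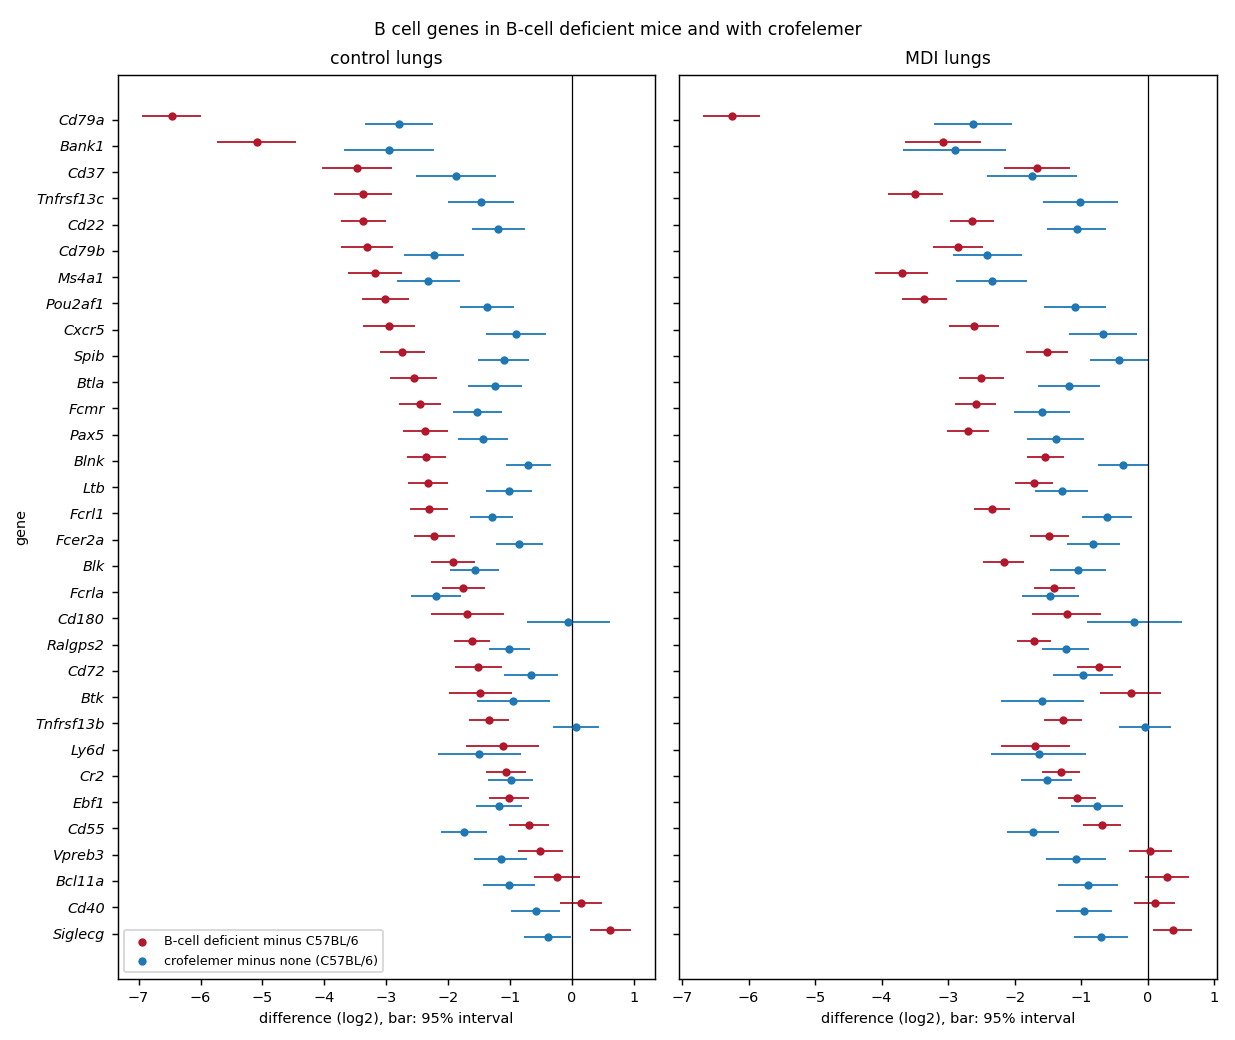
Difference of each member between B-cell deficient and C57BL/6 lungs (red) and between C57BL/6 lungs with and without crofelemer (blue), in control (left) and MDI lungs (right), with 95% intervals of the limma fit on the log2 scale. Red points lie left of blue points for most genes, and in controls the order is turned for 8 members, among them Cd55, Vpreb3, Bcl11a, Cd40 and Siglecg.

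The loss in B-cell deficient mice and the fall with crofelemer were set against each other directly, by comparing B-cell deficient lungs with crofelemer-treated C57BL/6 lungs. In controls, 21 members were lower in the B-cell deficient lungs, 6 were higher and 5 did not pass (32.6% and 30.2% of all probe sets were called lower and higher), with a median of -0.97 beside -0.02 over all probe sets. Under MDI, 17 were lower and 6 higher (27% and 18.3%), with a median of -0.57 beside -0.10. This comparison crosses 2 strain sets and moves with their levelling. The constant of 0.64 is larger than the size of the median under MDI, whose sign therefore depends on it. The shares of all probe sets above are on the levelled scale. With no constant per set the counts were 15 lower and 9 higher in controls and 11 lower and 9 higher under MDI. Under all 4 scalings together, 15 members were lower and 5 higher in controls, and 11 lower and 6 higher under MDI. By group means, 23 of 32 members stood in the order C57BL/6, crofelemer, B-cell deficient in controls and 22 under MDI, on the levelled scale.

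Cd79a differed most between these groups, by -3.67 ± 0.25, B-cell deficient minus crofelemer (12.7-fold, adjusted p = 1.94e-17). Cd22, Bank1, Cxcr5 and Tnfrsf13c followed, lower in B-cell deficient controls than with crofelemer by 2.18 ± 0.19, 2.13 ± 0.34, 2.05 ± 0.22 and 1.91 ± 0.25. Blnk, Spib, Pou2af1, Cd180, Cd37, Tnfrsf13b, Fcer2a, Ltb, Btla and Fcrl1 were lower by 1.01 to 1.65, and these 15 calls held under all 4 scalings. For Ms4a1, Cd79b, Pax5, Fcmr, Cd72 and Ralgps2 the calls of -0.86 ± 0.23, -1.08 ± 0.22, -0.93 ± 0.19, -0.92 ± 0.18, -0.85 ± 0.20 and -0.61 ± 0.15 changed with the scaling. Blk, Btk, Ly6d, Cr2 and Ebf1 did not pass, with differences of -0.35 ± 0.18, -0.53 ± 0.27, 0.38 ± 0.31, -0.07 ± 0.17 and 0.16 ± 0.17.

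In the other direction, Cd55, Siglecg, Bcl11a, Cd40 and Vpreb3 were higher in B-cell deficient controls than with crofelemer under all 4 scalings, by 1.04 ± 0.17, 1.01 ± 0.17, 0.77 ± 0.19, 0.73 ± 0.18 and 0.64 ± 0.19. Every B-cell deficient array was above every crofelemer array for Cd55 and Siglecg, 2 of 32 members, a smaller share than the 13.3% of all probe sets. With no constant per set this was so for 6 members. Under MDI it was so for 4 on the levelled scale and for 8 with no constant, counts for which no share of all probe sets is given. The sixth member called higher in controls, Fcrla (0.45 ± 0.18, adjusted p = 0.0322), changed with the scaling and lost the call without the third control array with crofelemer (adjusted p = 0.172). Under MDI the same 5 genes and Btk were higher, by 1.03 to 1.33, under all 4 scalings. The call of Btk under MDI was lost without the first of the 3 arrays with crofelemer (adjusted p = 0.113), the array at 6.21.

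Airway exposure to MDI changed 4 members in C57BL/6 mice, none in BALB/c mice and 14 in B-cell deficient mice. In C57BL/6 mice, Ltb, Siglecg and Cd40 rose by 0.57 ± 0.15, 0.57 ± 0.15 and 0.53 ± 0.16 and Ebf1 fell by 0.45 ± 0.15 (adjusted p = 0.0066, 0.00834, 0.0187 and 0.0349). These are 3 higher and 1 lower of 32, beside 5.3% and 9.23% of all probe sets (4 and 0 with each array centred on its median), and 9 members had an unadjusted p under 0.05. The calls of Ebf1 and Cd40 both ended without C57BL/6 control 2 (adjusted p = 0.0588 and 0.0559) and without C57BL/6 control 3 (adjusted p = 0.0986 and 0.0617), which left 2 calls. In BALB/c mice limma called none of 32 (0.302% of all probe sets, 4 members at an unadjusted p under 0.05). Spib had the smallest p there, at 6.07, 6.45 and 6.10 on the 3 control arrays and 6.88, 7.33 and 7.02 on the 3 MDI arrays, groups that did not overlap (0.87 ± 0.28, adjusted p = 0.276). With crofelemer limma called none either (0.054%, 5 members at an unadjusted p under 0.05).

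In B-cell deficient mice 12 members rose with MDI and 2 fell (16.2% and 20.7% of all probe sets, and 12 and 4 members with each array centred on its median), with a median of 0.17 beside -0.06 over all probe sets. Bank1 rose from 4.97, 5.56 and 6.44 (lowest, median, highest) to 7.08, 7.70 and 8.62, a difference of 2.16 ± 0.30 (adjusted p = 2.52e-07). Btk rose from 6.35, 7.14 and 7.58 to 8.42, 8.91 and 9.04, by 1.70 ± 0.25 (adjusted p = 4.47e-07). Cd37 rose from 7.36, 7.80 and 8.67 to 8.76, 9.33 and 10.57, by 1.69 ± 0.27 (adjusted p = 2.7e-06). For these 3 genes no MDI array overlapped a control array, and the same was true of Cd72, Fcer2a, Blnk, Spib, Bcl11a and Ltb, 9 members in all (4.67% of all probe sets). Ltb, Blnk, Cd72, Spib, Bcl11a, Fcer2a and Cd22 rose by 1.18 ± 0.15, 1.00 ± 0.15, 0.95 ± 0.18, 0.94 ± 0.17, 0.90 ± 0.18, 0.87 ± 0.16 and 0.70 ± 0.18. Cd40 and Tnfrsf13b rose by 0.50 ± 0.16 and 0.45 ± 0.15, and Ebf1 and Pax5 fell by 0.49 ± 0.15 and 0.42 ± 0.17. The receptor subunits and CD20 were not among them: Cd79a differed by -0.31 ± 0.23, Cd79b by 0.41 ± 0.20 and Ms4a1 by -0.43 ± 0.21 (adjusted p = 0.285, 0.102 and 0.101). Cd79a and Ms4a1 were already low on the scale in B-cell deficient controls (means 4.62 and 3.80), at an unknown distance from background.

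The effect of MDI was larger in B-cell deficient than in C57BL/6 mice for 9 members and smaller for none, by a test of the difference itself (9.27% and 11% of all probe sets). The difference was 2.01 ± 0.42 for Bank1, 1.81 ± 0.37 for Cd37, 1.23 ± 0.34 for Btk and 1.23 ± 0.24 for Spib (adjusted p = 0.00107, 0.00088, 0.00983 and 0.000533). It was between 0.61 and 0.82 for Blnk, Cd72, Fcer2a, Cd22 and Ltb. Bank1, Btk, Cd37, Spib, Blnk and Fcer2a were called under all 4 scalings. Without the 4 B-cell deficient control arrays of narrowest spread the number of calls was 4, and 12 members were called for MDI within the B-cell deficient mice. The calls of Cd22, Cd72 and Ltb for the difference, and those of Pax5 and Tnfrsf13b for MDI in B-cell deficient mice, were each lost when certain single arrays were left out. Within the single submission block that held 3 MDI and all 9 control arrays of this strain, 11 members rose and 1 fell. Beside this, markers of some other cells rose with MDI in B-cell deficient mice (16.2% of all probe sets rose and 20.7% fell). These were 14 of 15 measured T cell, 8 of 11 macrophage and monocyte, 8 of 10 conventional dendritic cell and 5 of 5 eosinophil markers, and none fell. Median array means were also higher for neutrophil, plasma cell and plasmacytoid dendritic cell markers. They were lower for lymph node stroma (from 7.74 to 7.39), airway epithelium (from 16.26 to 15.18), alveolar epithelium and endothelium. The array means of the T cell markers were 6.40 to 6.90 in controls and 7.44 to 7.96 under MDI, and those of the macrophage and monocyte markers 9.29 to 10.20 and 10.79 to 11.27. In C57BL/6 mice the T cell means were 6.83 to 7.34 in controls and 7.14 to 8.04 under MDI. The macrophage and monocyte means there were 10.29 to 11.21 and 10.96 to 11.86. The part of these cells in the rise was not tested.

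**Figure D4:**
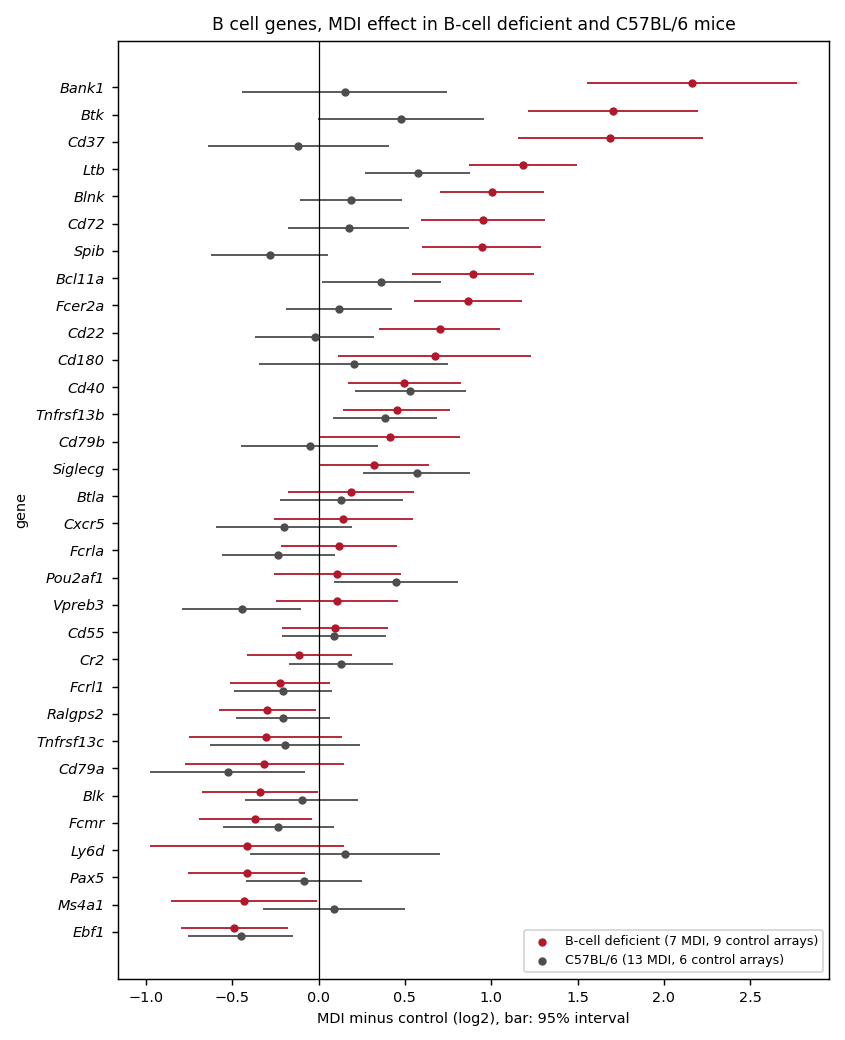
Difference between MDI and control lungs on the log2 scale for each member in B-cell deficient (red) and C57BL/6 mice (grey), with 95% intervals of the limma fit. Bank1, Btk and Cd37 lie above 1.5 in B-cell deficient mice and below 0.5 in C57BL/6 mice, and Cd79a, Ms4a1 and Ebf1 lie below zero in B-cell deficient mice.

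For no member did crofelemer change the effect of MDI by limma (0.423% of all probe sets were called, and 3 members had an unadjusted p under 0.05). With 3 arrays in the smallest group, the intervals of these differences were wide, for example -0.64 to 0.97 for Cd79a and -0.76 to 0.71 for Ms4a1.

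Between strains, BALB/c control lungs had lower signal than C57BL/6 control lungs for 7 members and higher for 3 (12.4% and 18.2% of all probe sets). Ly6d was at 7.06, 7.24 and 7.64 on the 3 BALB/c arrays and at 8.29, 8.66 and 9.67 (lowest, median, highest) on the C57BL/6 arrays, with no overlap and a difference of -1.52 ± 0.39 (adjusted p = 0.00239). Cd79a, Bank1, Pax5, Btla, Ralgps2 and Fcmr were lower by 1.31 ± 0.32, 1.12 ± 0.42, 1.02 ± 0.24, 0.95 ± 0.25, 0.92 ± 0.20 and 0.59 ± 0.23. Cd40, Tnfrsf13b and Ebf1 were higher by 0.81 ± 0.23, 0.66 ± 0.22 and 0.63 ± 0.22. Without a constant per strain set 11 were lower and 1 higher. The calls of Bank1, Fcmr, Cd40, Tnfrsf13b and Ebf1 were each lost when 1 of the BALB/c control arrays was left out, with adjusted p up to 0.225 (Fcmr, without the second). The effect of MDI differed between the strains for no member (0.027% of all probe sets called, 1 member at an unadjusted p under 0.05), and with array weights for 1. A probe can bind the 2 strains unequally where their sequences differ, which was not tested.

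Other genes of the pathway moved less evenly. Of all probe sets in controls, 35.4% were lower and 24.1% higher by genotype, and 21.4% and 17.6% with crofelemer. Of 21 measured signalling genes that B cells share with other leukocytes, 18 were lower and none higher in B-cell deficient mice in controls (median -1.25), and 9 fell and 2 rose with crofelemer (median -0.24). Plcg2, Syk, Nfatc1 and Prkcb, enzymes and a factor downstream of the receptor, were lower by 2.17 ± 0.17, 2.10 ± 0.18, 1.91 ± 0.16 and 2.40 ± 0.20 by genotype, and with crofelemer they had differences of 0.30 ± 0.20, -0.24 ± 0.20, 0.30 ± 0.18 and -0.78 ± 0.23 (adjusted p = 0.234, 0.358, 0.198 and 0.00638). Of 23 other surface and presentation genes, 16 were lower and none higher by genotype, and 10 fell and 3 rose with crofelemer. H2-Ob, a subunit of the MHC class II modulator H2-O found in B cells, was lower by 2.93 ± 0.22 and fell by 2.52 ± 0.26. Cd69, an activation marker, was lower by 1.48 ± 0.20 and fell by 2.03 ± 0.23. Of 19 other transcription factors, 14 were lower and 1 higher by genotype, and 7 fell and 1 rose with crofelemer. Ikzf3, the B cell factor Aiolos, was lower by 2.29 ± 0.18 and fell by 1.16 ± 0.20. Of 12 progenitor genes, 3 were lower and 4 higher by genotype, with Vpreb2 and Rag2 higher by 0.90 ± 0.13 and 0.82 ± 0.16. Both were low on the scale, at means of 4.94 and 4.15 in C57BL/6 and 5.84 and 4.96 in B-cell deficient controls. With crofelemer 3 of the 12 fell and none rose.

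Among 14 measured ligands for B cell survival and homing, 3 were lower and 2 higher by genotype (35.4% and 24.1% of all probe sets in controls). With crofelemer 5 fell and 2 rose (21.4% and 17.6%). Tnfsf13b, which encodes BAFF, differed by 0.21 ± 0.19 between B-cell deficient and C57BL/6 controls (adjusted p = 0.331) and fell by 1.54 ± 0.21 with crofelemer in controls and by 1.63 ± 0.23 under MDI (adjusted p = 5.54e-08 and 7.58e-08). Cxcl13 was lower by 1.40 ± 0.37 in B-cell deficient controls and by 2.12 ± 0.33 under MDI (adjusted p = 0.00106 and 7.72e-07), and differed by -0.57 ± 0.42 and -0.70 ± 0.44 with crofelemer (adjusted p = 0.289 and 0.238). Jchain was lower by 6.81 ± 0.40 by genotype and fell by 2.49 ± 0.46 with crofelemer in controls, and by 8.04 ± 0.35 and 3.71 ± 0.48 under MDI. In B-cell deficient lungs Jchain was at the bottom of the scale (mean percentile over probe sets 0.24 in controls and 0.12 under MDI). Its distance from background there was not analysed here, so the sizes of its genotype differences may be limited by it. Of 10 plasma cell genes, which overlap the other lists through Jchain and Mzb1, 6 were lower and 1 higher by genotype, and 1 fell and 2 rose with crofelemer, among them Sdc1, a proteoglycan that epithelium also makes, by 1.51 ± 0.14.

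Markers of other cells were called in the same comparisons, some lists at shares near those of all probe sets (35.4% lower by genotype and 21.4% lower with crofelemer in controls), such as 6 of 15 and 4 of 15 T cell markers. In B-cell deficient controls all 9 measured neutrophil markers were lower (median -3.80, array means 5.67 to 7.30 against 8.53 to 11.10), as were 8 of 11 macrophage and monocyte markers, 6 of 15 T cell markers, 6 of 6 endothelial, 7 of 8 alveolar and 2 of 4 airway epithelial markers, 4 of 9 markers of plasmacytoid dendritic cells, 1 of 7 of lymph node stroma, 1 of 5 of eosinophils and 1 of 10 of conventional dendritic cells. Of these lists, eosinophil markers (2), conventional dendritic cell markers (3) and lymph node stroma (1) also had higher members. With crofelemer in controls, 5 of 9 neutrophil, 4 of 15 T cell, 7 of 9 plasmacytoid dendritic cell, 6 of 6 endothelial, 4 of 4 airway and 4 of 8 alveolar markers fell, with 3 of 5 eosinophil, 3 of 7 lymph node stroma and 2 of 10 conventional dendritic cell markers. The lists of eosinophils (1), conventional dendritic cells (1) and alveolar epithelium (2) also had members that rose. Of the macrophage and monocyte markers 5 of 11 rose (17.6% of all probe sets) and none fell. Cd3e, the defining T cell subunit, was at 8.55 ± 0.50 (SD, n = 6) in C57BL/6 controls, 8.67 ± 0.54 (n = 5) with crofelemer and 8.44 ± 0.43 (n = 9) in B-cell deficient mice. It does not stand for all 15 T cell markers, whose array means were 6.83 to 7.34, 6.65 to 7.18 and 6.40 to 6.90 in the same order. The array means of the endothelial markers were 14.80 to 15.25 in C57BL/6 controls, 13.78 to 14.41 with crofelemer and 13.97 to 14.29 in B-cell deficient mice. The means of the plasmacytoid dendritic cell markers were 9.01 to 9.90, 8.48 to 8.62 and 8.71 to 9.21 in the same order. No value in the deposited table was at 0 (lowest 1.86), and no marker can be called absent from it. The part of these cells in the fall of the B cell genes was not tested.

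**Figure D5:**
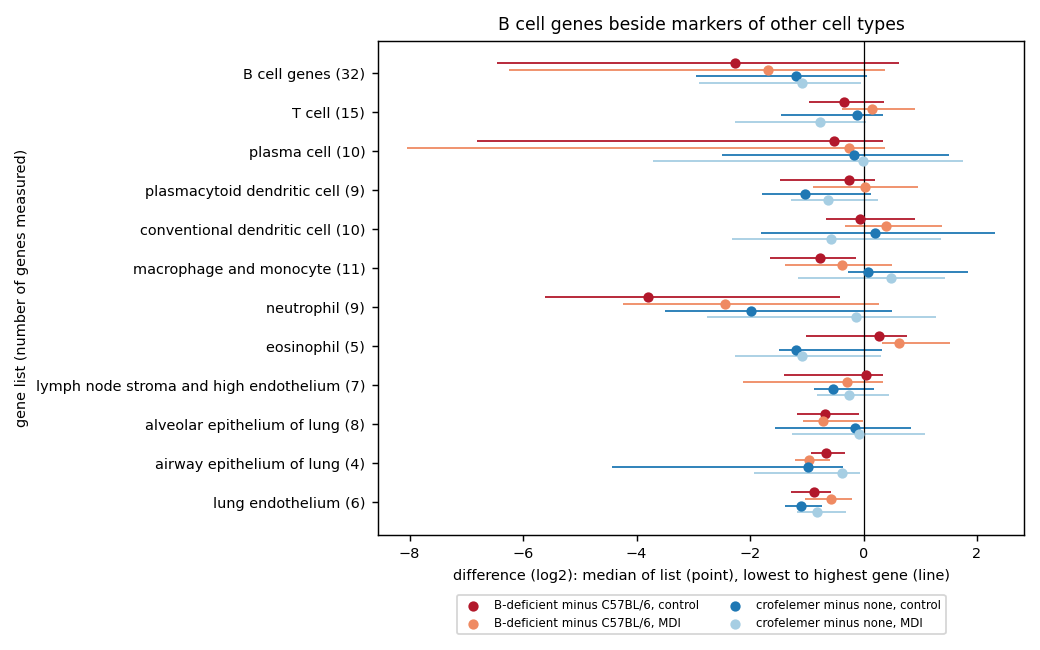
Median difference (point) and range over genes (line) of the 32 B cell genes and of 11 marker lists of other cells, for genotype (red for control, orange for MDI) and crofelemer (dark blue for control, light blue for MDI), on the log2 scale. The B cell genes have medians of -2.27 and -1.68 by genotype and -1.18 and -1.09 by crofelemer, and the neutrophil list reaches -3.80 by genotype in controls.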

How the data were processed

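Lavaged and perfused whole lung was measured on a 1-colour expression array from 250 ng RNA, per the labels' protocols. The authors deposited log2 signals for 22206 probe sets. The submitters' processing notes name Transcriptome Analysis Console, and neither its version nor its settings are known here. The log base was inferred from the range, 1.86 to 20.91. Precision was limited by the number of arrays. Of 51 arrays, 49 were grouped by their labels and 2 with contradictory labels were left out. A symbol was found for 19572 probe sets, and 2634 stayed unnamed.

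The median of each strain set was brought to that of the C57BL/6 set by 1 constant, which leaves contrasts within a set as deposited. A limma model (limma 3.58.1, R 4.3.3) with 8 group means, empirical Bayes variances with an intensity trend and 14 contrasts was fitted to all probe sets, with Benjamini-Hochberg adjustment over all of them and a threshold of 0.05. Replicate numbers from the titles were checked as pairs by correlating deviations from the group means. All same-numbered arrays correlated positively only for crofelemer against none under MDI (0.105 to 0.167 over 3 pairs), which are too few to show pairing. The model was tested on simulated data. Figures were drawn with matplotlib 3.10.9 (Python 3.11.15). Alternatives were other scalings, filters, weights, variance models, batch terms and arrays left out.

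The members and the lists (5 roles among the members, 11 marker lists, 6 pathway lists) were chosen with earlier results of these data known. All members are named. Array values are given for the 8 largest falls and 4 smallest in B-cell deficient controls and for up to 6 members of smallest adjusted p with crofelemer, and for other members that a comparison turns on. From the other lists up to 4 genes of smallest adjusted p were named, with Cxcl13 and Cd3e.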

Additional observations from a re-analysis of the deposited data

Results flagged for a closer look

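In 128 combinations of a member and a group of 4 to 10 arrays, 5 had 1 array far from the others by Dixon's criterion, which chance meets in about 1 of 20 groups. Cd79b was low on C57BL/6 control array 6 (8.30), Fcer2a was high on control array 1 with crofelemer (7.56), and Ly6d was high on B-cell deficient control array 7 (9.20). On B-cell deficient MDI array 4, Cr2 was low (3.73) and Cxcr5 was high (4.77).

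The effect of MDI differed between B-cell deficient and C57BL/6 mice for 9 members by limma. The difference, B-cell deficient minus C57BL/6 on the log2 scale, was 2.01 for Bank1, 1.81 for Cd37, 1.23 for Btk and 1.23 for Spib. It was 0.82 for Blnk, 0.78 for Cd72, 0.75 for Fcer2a, 0.72 for Cd22 and 0.61 for Ltb.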

How the results depend on the processing

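With dim probe sets left out before the fit, 19 members remained, and 18, 16, 18 and 17 were called in the 2 genotype and the 2 crofelemer comparisons (control, MDI), and 16 and 12 between B-cell deficient and crofelemer-treated lungs. The effect of MDI in C57BL/6 mice was called for 4 members, for 2 with only the groups compared, for 2 within 1 submission block and for 0 with a replicate block. It was called for 2 to 6 when single arrays were left out. The replicate block, fitted to 6 arrays only, left 15 of 28 calls for crofelemer under MDI. In that comparison every same-numbered pair correlated above 0.1, but 3 pairs are too few to show pairing. In the 10 other comparisons of 2 groups the lowest such correlation was -0.10 to -0.26 and the highest 0.026 to 0.215, which does not show pairing. Array weights gave 1 call for the difference in the effect of MDI between BALB/c and C57BL/6. Without the 4 B-cell deficient control arrays of narrow spread, chosen after seeing the data, 4 members were called for the difference in MDI effect between genotypes. With no constant per strain set, Vpreb3 was at 0.13 between B-cell deficient and C57BL/6 controls. Against crofelemer-treated controls Cr2 was at 0.57 and Ralgps2 at 0.031, and Ralgps2 was at 0.16 under MDI. The cause of these changes was not tested, except that the constant moves all genes of a comparison across strain sets by 1 amount, which differs between the sets. Leaving out single arrays gave 30 calls by genotype in controls each time, 27 to 28 under MDI, 28 to 30 for crofelemer in controls and 26 to 28 under MDI. Between B-cell deficient and crofelemer-treated lungs it gave 26 to 28 and 20 to 23, for MDI in B-cell deficient mice 12 to 16, for the difference between genotypes 7 to 10 and for the strains 7 to 11. No deposited value gives signal over background, so how far dim members such as Cr2 and Siglecg lie above it is unknown. Others were dimmer still in B-cell deficient controls, with means of 3.44 for Pou2af1, 3.63 for Spib, 3.80 for Ms4a1, 3.95 for Cxcr5, 3.96 for Fcrl1, 4.27 for Pax5 and 4.62 for Cd79a. The sizes of their genotype differences, and of any fall with MDI in that strain, may be limited by background.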

Other observations

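For 2 arrays of C57BL/6 mice exposed to MDI the labels contradict each other on whether crofelemer was given, and they entered no comparison. On the array titled number 4, with crofelemer in the title and none among the characteristics, the mean of the members was 7.40, with Cd79a at 8.64, Cd79b at 7.49, Ms4a1 at 5.47, Bank1 at 8.99 and Cd55 at 11.59 (deposited log2 values, array median 6.81). On the array titled number 13, with the contradiction the other way, the mean was 8.59, with Cd79a at 10.79, Cd79b at 8.90, Ms4a1 at 7.06, Bank1 at 11.02 and Cd55 at 12.63 (array median 6.94).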
